A study of Homo sapiens with 3 samples.

Results

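Mitochondrial ribosomal protein genes were examined in RWPE1 cells, an established benign human prostate epithelial line, on Illumina expression arrays. The genes were taken by name: every probe whose symbol in the platform annotation starts with MRPL (large subunit) or MRPS (small subunit) and whose detection value was above 0.99 on the vector array or the MYC-labelled array. This gave 91 probes of the 24526 on the array, which stand for 74 of its 16922 named genes, 48 of them MRPL and 26 MRPS. The 3 groups were cells overexpressing MYC, cells carrying a constitutively active PI3K (E545K) and cells carrying the empty vector PMN, each made by retroviral infection and grown in K-SFM with BPE and EGF without further treatment. Each group had 1 array, so every difference below lacks a replicate check and no p-value is given. The sources used here do not say whether a line is a pool or 1 clone.

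The mitochondrion keeps its own ribosome, which makes the membrane proteins of the respiratory chain and the ATP synthase that mitochondrial DNA encodes. Its RNAs come from mitochondrial DNA, but all of its proteins are encoded in the nucleus, made in the cytosol and imported. Many have counterparts in the bacterial ribosome, and others are found only in mitochondrial ribosomes. MYC is known as an activator of genes for ribosomes and mitochondria, and PI3K signals through AKT and mTOR, which promote protein synthesis.

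Values are differences between the authors' deposited log2 values. For single genes they are given with the signal on each array, expressed on the vector array's scale (the deposited difference added to log2 of the vector signal). A gene with several probes took its brightest. The technical error comes from 951 genes with at least 2 probes above background: the SD between a pair of probes, divided by the square root of 2, was 0.26 on the log2 scale for each oncogene array against the vector and 0.22 between the oncogene arrays. Over the 14 mitochondrial ribosomal protein genes with several probes it was 0.15 for the MYC-labelled array against the vector, 0.17 for the PI3K array against the vector and 0.26 between the oncogene arrays. This error leaves out differences between cultures, RNA preparations and hybridisations. Median signal before scaling was 128.7 on the MYC-labelled array and 158.9 on the vector array, where 9097 and 9700 probes were above background. The single MYC probe was lower on the MYC-labelled array than on the vector array (log2 difference of -0.25) and higher than on the PI3K array (0.57), and where it lies relative to the introduced sequence is not known here. That array is therefore named by its label only, and every statement on MYC below depends on it. No probe is named for PIK3CA (0 probes). All 5 basal epithelial markers with a probe, both general epithelial markers and 3 of 4 luminal markers with a probe were above background. Of the other cell types, 0 of 6 fibroblast, 0 of 3 endothelial and 1 of 3 leukocyte markers with a probe were (CD14, which is also expressed by epithelia). A marker counted if it passed on the vector array or the MYC-labelled array. Several of these epithelial markers differed between the arrays, in both directions. The basal keratins KRT5, KRT14 and KRT15 were lower on the MYC-labelled and PI3K arrays than on the vector array, as were the luminal keratins KRT8 and KRT19 and the general marker CDH1. KRT15 read 166 on the MYC-labelled array, 470 on the PI3K array and 2231 on the vector array. Its reading on the MYC-labelled array lay below that of COL1A1 (207), a fibroblast marker not above background. The general marker EPCAM was higher on both oncogene arrays, at 1061 on the MYC-labelled array, 896 on the PI3K array and 518 on the vector array, as was the basal marker ITGA6, at 1455 on the MYC-labelled array, 2435 on the PI3K array and 1223 on the vector array. The luminal keratin KRT18 was higher on the MYC-labelled array alone (302, against 146 on the PI3K array and 148 on the vector array), and the basal marker ITGB4 on the PI3K array alone (3715 on the MYC-labelled array, 7182 on the PI3K array and 4356 on the vector array). KRT18 on the vector array also lay below COL1A1 there (207). The part of these differences in the results below was not tested. In these bulk samples, fewer cells of a type and less RNA per cell cannot be told apart.

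Of the 102 MRPL and MRPS probes on the array, 11 did not pass the detection rule, and they leave 4 of the 78 symbols without a value: MRPL44, MRPS18C and the pseudogenes MRPL42P5 and MRPS31P5. The nearest probe outside the threshold was an additional MRPS12 probe with a detection value of 0.989, and the nearest inside was the MRPS14 probe. MRPS14 is the only member that passed on 1 array alone, the vector array, with detection values of 0.967 on the MYC-labelled array and 0.991 on the vector array. The other 90 probes were above background on both arrays. MRPS25 is not analysed here.

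On the MYC-labelled array, most mitochondrial ribosomal protein genes lay moderately above the vector array. The median log2 difference was 0.30 over the 74 genes, against 0.07 over all 8148 genes above background. Above 0 were 65 of the 74 (87.8%), and the share among all genes above background was 56.4%. At least 1.5-fold higher were 11 of the 74 (14.9%), against 10.8% of all genes. None reached 2-fold in either direction (0 of 74), while 2.31% of all genes were at least 2-fold higher and 4.77% at least 2-fold lower. None was at least 1.5-fold lower (0 of 74), a threshold that 10.6% of all genes passed. The middle 50% of the members spanned 0.13 to 0.49, a width of 0.36, and that of all genes had a width of 0.59. Among genes with a mean scaled signal of at least 1000, the medians were 0.29 over 62 members and 0.08 over 3645 genes. The members were thus displaced upwards as a group by a small amount, with none at least 1.5-fold lower. Their share at least 1.5-fold higher, 14.9%, lay near the 10.8% of all genes.

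**Figure D1:**
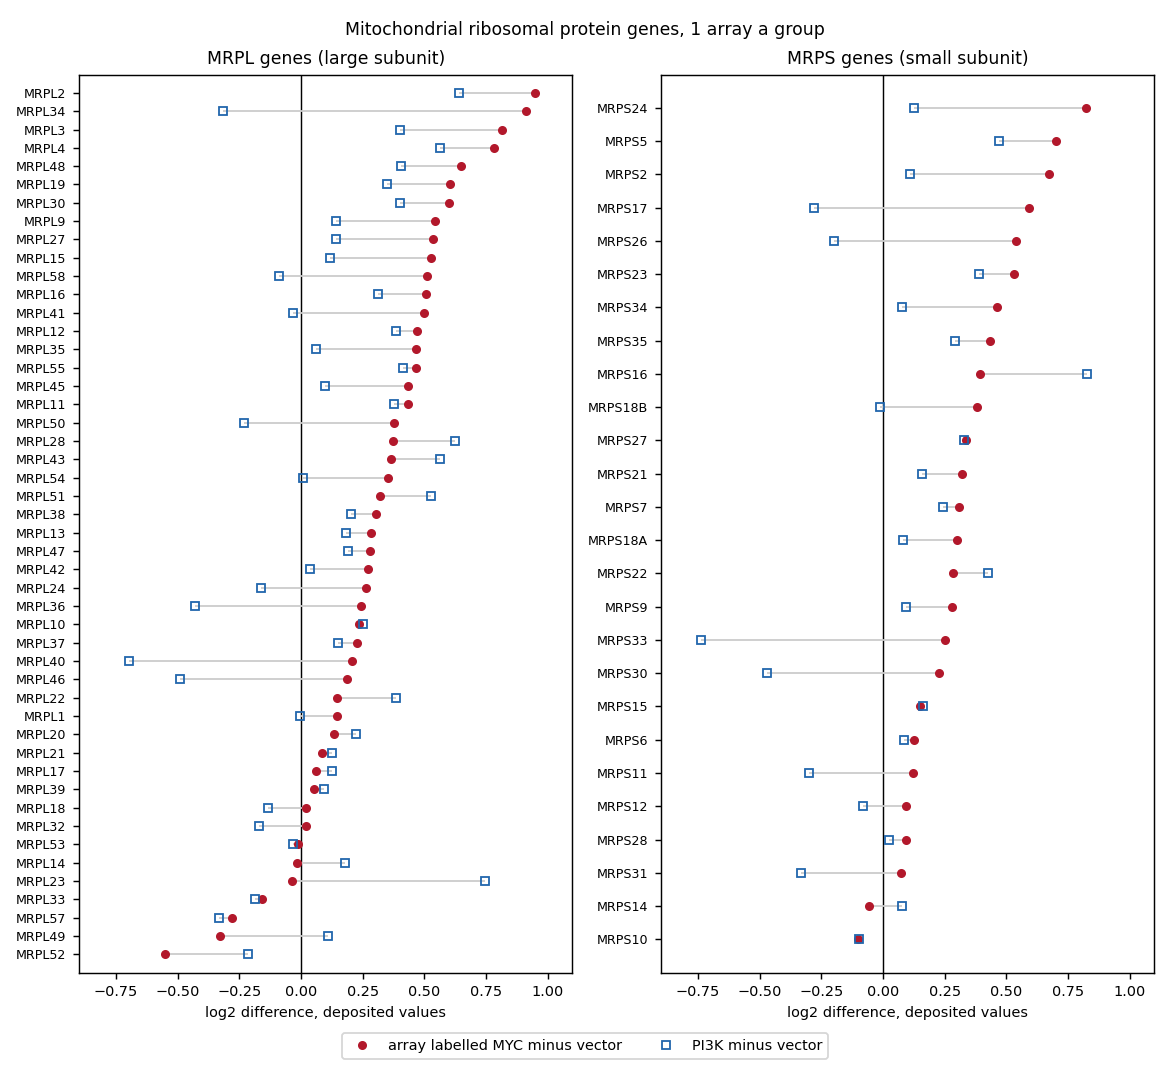
Log2 difference from the vector array (x axis, deposited values) for each of 48 MRPL genes (left) and 26 MRPS genes (right), for the MYC-labelled array (filled circles) and the PI3K array (open squares), ordered by the first. Most circles lie right of 0 (65 of 74), while the squares spread to both sides (50 of 74 above 0). The 2 comparisons share the vector array, and each point is 1 array against 1 array.

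Sites on the ribosome were chosen with earlier results of these data known, and 27 MRPL and 12 MRPS genes were given no site. A ranking of the sites is therefore descriptive and no test. The proteins around the peptidyl transferase centre, where peptide bonds form, had the highest median of the ribosomal sites distinguished here for the MYC-labelled array, at 0.67 over 4 genes. MRPL2, the counterpart of bacterial L2, which the catalytic site needs, had the highest difference of all members. Its signal was 3579 on the MYC-labelled array, 2891 on the PI3K array and 1856 on the vector array, so the oncogene arrays lay above the vector (log2 differences of 0.95 and 0.64). MRPL3, a further protein of this neighbourhood whose mutation causes a mitochondrial translation disease, read 747 on the MYC-labelled array, 562 on the PI3K array and 425 on the vector array (0.81 and 0.40). MRPL27, which reaches towards the transfer RNAs in the catalytic site, and MRPL16 gave 0.53 and 0.51 for the MYC-labelled array and 0.14 and 0.31 for the PI3K array. All 4 genes were thus above the vector on both oncogene arrays.

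The exit tunnel, through which the new chain leaves, was mixed. MRPL4, which lines the tunnel, read 950 on the MYC-labelled array, 817 on the PI3K array and 553 on the vector array, and its 2 probes each gave 0.78 for the MYC-labelled array against the vector. MRPL45, which holds the ribosome to the inner membrane, gave 0.43 by its brighter probe and 0.64 by the other. MRPL23, at the tunnel's outlet, was a different case: its signal was 3634 on the MYC-labelled array, 6244 on the PI3K array and 3723 on the vector array. It was therefore high on the PI3K array only, by 1.68-fold over the vector. Over the 8 tunnel genes the median was 0.21 for the MYC-labelled array and 0.16 for the PI3K array. MRPL24, also at the outlet, had opposite signs on the oncogene arrays, 0.26 on the MYC-labelled array and -0.16 on the PI3K array, and its second probe gave 0.41 and -0.26.

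The stalk that recruits translation factors was similar on both oncogene arrays. MRPL12, the stalk protein itself, which also binds the mitochondrial RNA polymerase, read 3799 on the MYC-labelled array, 3577 on the PI3K array and 2742 on the vector array. MRPL11, at the stalk's base, gave 0.43 for the MYC-labelled array and 0.38 for the PI3K array by its brightest probe, and its 3 probes ranged over 0.28 to 0.46 and 0.18 to 0.42. MRPL10, which anchors the stalk protein, gave 0.24 and 0.25. The differences among these genes are within the technical error.

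In the central protuberance, which faces the transfer RNAs at the top of the large subunit, the oncogene arrays lay apart. All 6 genes were above 0 on the MYC-labelled array (median 0.26) and 2 of 6 on the PI3K array (median -0.11). MRPL40 had a signal of 2133 on the MYC-labelled array, 1139 on the PI3K array and 1848 on the vector array. MRPL46 read 3810 on the MYC-labelled array, 2379 on the PI3K array and 3346 on the vector array. MRPL40 and MRPL46 were thus lowest on the PI3K array, by log2 differences of -0.70 and -0.49 from the vector. MRPL48 differed from them: its signal was 2189 on the MYC-labelled array, 1845 on the PI3K array and 1394 on the vector array. MRPL58, a peptidyl-tRNA hydrolase built into the ribosome that frees stalled chains, gave 0.51 for the MYC-labelled array and -0.09 for the PI3K array.

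Of the other large subunit genes, MRPL34, a short protein with a bacterial counterpart, had the widest gap. It read 3848 on the MYC-labelled array, 1640 on the PI3K array and 2044 on the vector array. The MYC-labelled array was 1.88-fold above the vector, and the PI3K array below it (log2 difference of -0.32). MRPL19 (0.60) and MRPL30 (0.60) were also at least 1.5-fold higher on the MYC-labelled array than on the vector array, and both gave smaller differences for the PI3K array (0.35 and 0.40). Both have bacterial counterparts.

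The lowest members on the MYC-labelled array were MRPL52 and MRPL49, both found only in mitochondrial ribosomes. MRPL52 read 459 on the MYC-labelled array, 579 on the PI3K array and 672 on the vector array. MRPL49 read 695 on the MYC-labelled array, 940 on the PI3K array and 873 on the vector array. The log2 differences of the MYC-labelled array from the vector were -0.55 and -0.33, against the direction of most members. The other members below 0 were MRPL57 (-0.28), MRPL33 (-0.16), MRPS10 (-0.10), MRPS14 (-0.06), MRPL23 (-0.03), MRPL14 (-0.02) and MRPL53 (-0.01). Apart from MRPL52, MRPL49 and MRPL57, these were within the technical error of 0.26.

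In the small subunit, MRPS24, the counterpart of bacterial S3 at the entry of the messenger RNA channel, had the highest difference. Its signal was 10191 on the MYC-labelled array, 6288 on the PI3K array and 5768 on the vector array, so the MYC-labelled array stood alone (1.77-fold above the vector). MRPS5, which neighbours it at the channel's entry, read 2335 on the MYC-labelled array, 1988 on the PI3K array and 1436 on the vector array. MRPS12, whose bacterial counterpart sets the accuracy of decoding, was nearly level, at 0.09 by its brighter probe and -0.13 by the second for the MYC-labelled array. MRPS2 gave 0.67 for the MYC-labelled array and 0.11 for the PI3K array. MRPS17, an RNA-binding protein of the small subunit's body, had a signal of 7679 on the MYC-labelled array, 4192 on the PI3K array and 5094 on the vector array. In the head, MRPS9 gave 0.28 for the MYC-labelled array and 0.09 for the PI3K array, and MRPS10 gave -0.10 for each.

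**Figure D2:**
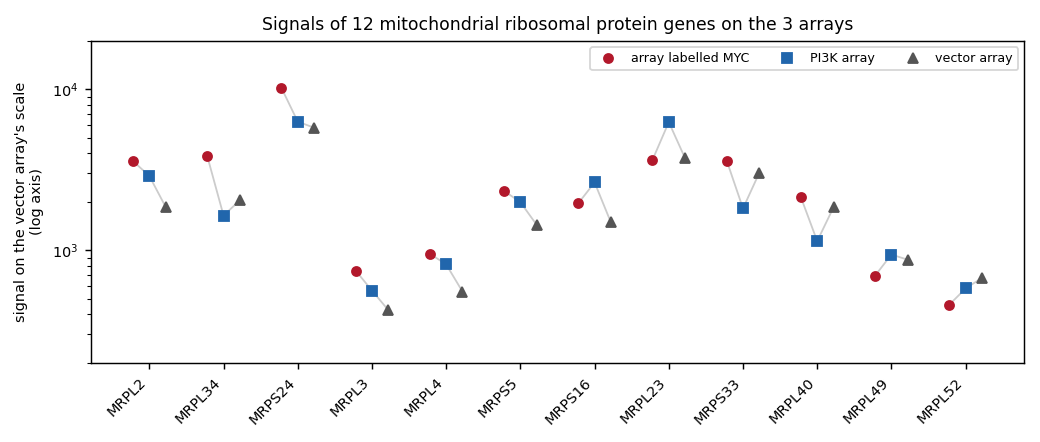
Signal (y axis, log scale, on the vector array's scale) of 12 genes on the MYC-labelled array (circle), the PI3K array (square) and the vector array (triangle), with 1 point an array and no error bars because there is 1 array a group. MRPL2, MRPL3, MRPL4 and MRPS5 are highest on the MYC-labelled array and lowest on the vector array. MRPS16 and MRPL23 are highest on the PI3K array, and MRPS33 and MRPL40 lowest there. Heights of different genes cannot be compared, because their probes differ.

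Promoters were read because MYC binds the E-box CACGTG. RefSeq sequences (GRCh38.p14) of the 250 bases before the annotated start were matched for 66 of the 74 genes, and for 6852 of all genes above background. Searched on both strands were CACGTG, which reads the same on either, the ETS factor motif CCGGAAG, and the consensus motifs of NRF1 and YY1, none overlapping another in the promoters shown. CACGTG was in 5 of the 66 promoters (7.58%), in 9.60% of those of all genes above background and in 6.34% of all 35116 promoters. The median difference of the MYC-labelled array from the vector was 0.23 for the 5 genes with it and 0.32 for those without. CCGGAAG, a motif bound by ETS factors such as GABPA, was in 22 of the 66 (33.3%), in 17.1% of those of all genes above background and in 8.52% of all promoters. Members with and without it had medians of 0.32 and 0.28 for the MYC-labelled array. The NRF1 and YY1 motifs were in 1 promoter each (1.52%), beside 2.16% and 0.365% of those of all genes above background. A match is a run of letters, not a measured site.

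Shown are the E-box promoters of MRPL45 and MRPL36, the highest of the 5 for the MYC-labelled array, that of MRPL49, which has the E-box and was among the lowest, the ETS motif promoters of MRPL3 and MRPL48, the highest with that motif, and that of MRPL34, the highest matched member, with none of the 4 motifs. All were chosen with their values in view, those of MRPL45 and MRPL36 by a rule that ranks E-box genes by this difference and the others outside that rule. The windows are MRPL45 at chr17:38296918-38297167 on the plus strand, MRPL36 at chr5:1799838-1800087 on the minus strand, MRPL49 at chr11:65121933-65122182 on the plus strand, MRPL3 at chr3:131502972-131503221 on the minus strand, MRPL48 at chr11:73787624-73787873 on the plus strand and MRPL34 at chr19:17292323-17292572 on the plus strand. Capitals mark the motifs, and each sequence ends at the base before the start.
MRPL45: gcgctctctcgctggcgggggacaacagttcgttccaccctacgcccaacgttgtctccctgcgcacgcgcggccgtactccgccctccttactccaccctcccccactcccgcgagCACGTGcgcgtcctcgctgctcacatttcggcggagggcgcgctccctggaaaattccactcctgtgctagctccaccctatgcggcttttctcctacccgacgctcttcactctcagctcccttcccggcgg
MRPL36: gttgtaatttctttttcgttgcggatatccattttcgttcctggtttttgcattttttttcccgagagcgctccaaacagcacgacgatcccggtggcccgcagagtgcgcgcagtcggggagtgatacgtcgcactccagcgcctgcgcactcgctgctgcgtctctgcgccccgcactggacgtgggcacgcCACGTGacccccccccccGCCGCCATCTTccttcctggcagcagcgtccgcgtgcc
MRPL49: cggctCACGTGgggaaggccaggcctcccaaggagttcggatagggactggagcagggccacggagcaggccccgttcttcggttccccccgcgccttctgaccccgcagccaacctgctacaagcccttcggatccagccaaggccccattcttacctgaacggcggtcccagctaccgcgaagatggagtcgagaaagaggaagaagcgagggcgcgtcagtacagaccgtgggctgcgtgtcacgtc
MRPL3: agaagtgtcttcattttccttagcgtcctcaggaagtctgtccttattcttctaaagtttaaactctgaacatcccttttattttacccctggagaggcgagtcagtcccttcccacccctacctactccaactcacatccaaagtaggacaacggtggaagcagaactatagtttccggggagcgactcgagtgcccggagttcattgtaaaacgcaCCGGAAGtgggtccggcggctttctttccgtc
MRPL48: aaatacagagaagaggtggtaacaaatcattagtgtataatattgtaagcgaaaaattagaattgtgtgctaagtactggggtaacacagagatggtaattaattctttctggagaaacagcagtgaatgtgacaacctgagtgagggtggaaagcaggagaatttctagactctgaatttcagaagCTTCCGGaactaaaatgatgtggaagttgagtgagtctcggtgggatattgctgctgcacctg
MRPL34: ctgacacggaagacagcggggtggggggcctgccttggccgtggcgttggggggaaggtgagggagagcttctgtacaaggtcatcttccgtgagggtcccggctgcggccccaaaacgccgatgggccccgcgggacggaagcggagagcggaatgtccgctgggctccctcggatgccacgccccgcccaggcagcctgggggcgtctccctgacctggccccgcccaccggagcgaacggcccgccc

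Counted back from the start as -1, the E-box begins at -133 in MRPL45, at -56 in MRPL36 and at -245 in MRPL49. MRPL36 also holds the YY1 motif on the other strand, at -38. The ETS motif begins at -32 in MRPL3 and, on the other strand, at -63 in MRPL48. MRPL36 was higher on the MYC-labelled array (0.24) and lower on the PI3K array (-0.43) than on the vector array. Of the 5 genes with the E-box, MRPL45 (0.43), MRPL36 (0.24), MRPL37 (0.23) and MRPL22 (0.15) lay above 0 for the MYC-labelled array. MRPL49 (-0.33) alone lay below.

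On the PI3K array the shift from the vector was smaller and members went both ways. The median was 0.11 over the 74 genes, against 0.05 over all genes above background. No detection value of the PI3K array was used, so genes above background there alone are missing from both sets. Above 0 were 50 of the 74 (67.6%), beside 55% of all genes. At least 1.5-fold higher were 4 (5.41%, beside 7.84% of all genes) and at least 1.5-fold lower were 2 (2.70%, beside 9.78%), and none reached 2-fold in either direction (0 of 74, beside 1.06% and 4.04%). The share at least 1.5-fold higher rests on 4 genes, and MRPL43 and MRPL4 (0.56 each) lay just below that threshold, which is 0.58 on the log2 scale. Both comparisons with the vector share that array, so a low or high vector signal moves a gene the same way in each.

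MRPS16, a small subunit protein of bacterial type whose mutation causes a mitochondrial translation disease, was highest on the PI3K array. It read 1954 on the MYC-labelled array, 2637 on the PI3K array and 1488 on the vector array. After MRPS16, MRPL23 and MRPL2 came MRPL28 (0.62), MRPL43 (0.56) and MRPL4 (0.56). The second MRPL43 probe gave 0.39 and the second MRPL4 probe 0.41. MRPL28 had a signal of 1120 on the MYC-labelled array, 1331 on the PI3K array and 864 on the vector array.

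MRPS33, found only in mitochondrial ribosomes, had the lowest difference. Its brighter probe read 3606 on the MYC-labelled array, 1817 on the PI3K array and 3027 on the vector array, a log2 difference of -0.74 for the PI3K array. The second probe gave -0.20, within the technical error, so the size depends on the probe. MRPS30, which is named as a small subunit gene but whose protein sits in the large subunit, read 5323 on the MYC-labelled array, 3280 on the PI3K array and 4545 on the vector array. MRPL36 read 8160 on the MYC-labelled array, 5122 on the PI3K array and 6900 on the vector array. MRPS31 followed at -0.33. On the MYC-labelled array, the 6 lowest genes of the PI3K array gave 0.07 to 0.25 by their brightest probes, within the technical error of 0.26, and the second MRPS33 probe gave -0.02.

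**Figure D3:**
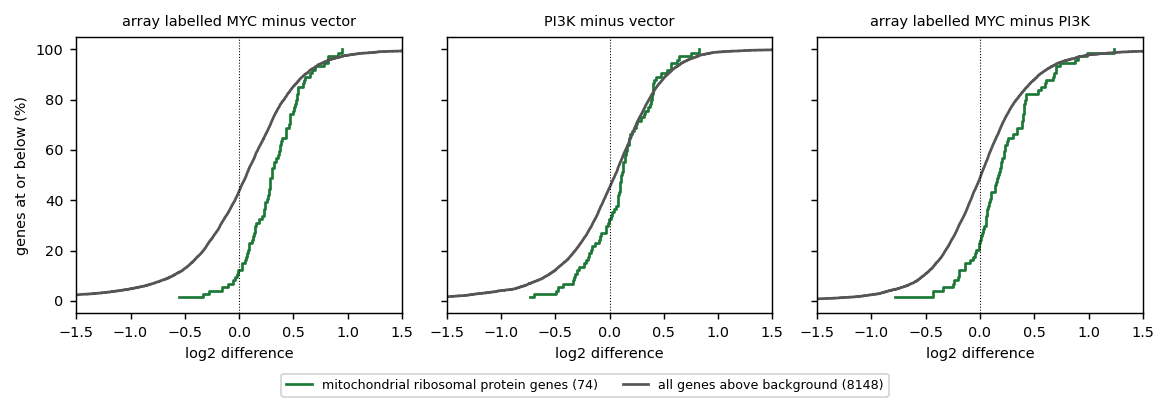
Share of genes (y axis, percent) at or below each log2 difference (x axis) for 74 mitochondrial ribosomal protein genes and all 8148 genes above background, in the 3 comparisons. The curve of the members lies right of that of all genes for the MYC-labelled array against the vector (medians 0.30 and 0.07) and for it against the PI3K array (0.17 and 0.01), and nearer to it for the PI3K array against the vector (0.11 and 0.05). Values outside -1.5 to 1.5 are not drawn.

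Set directly against the PI3K array, the MYC-labelled array was higher at most members. The median was 0.17, against 0.01 over all genes above background, and 56 of 74 members (75.7%) were above 0, beside 51.1% of all genes. At least 1.5-fold higher were 11 (14.9%, beside 8.84%) and at least 1.5-fold lower was 1 (1.35%, beside 7.87%), MRPL23 at -0.78. MRPL34 was 2.35-fold higher, the only member past 2-fold in any comparison (1 of 74, beside 2.21% of all genes at least 2-fold higher and 2.39% lower). After it came MRPS33 at 0.99, MRPL40 at 0.91, MRPS17 at 0.87, MRPS26 at 0.74 and MRPS30 at 0.70. The second MRPS33 probe gave 0.18. MRPS24 (0.70), MRPL46 (0.68), MRPL36 (0.67), MRPL50 (0.61) and MRPL58 (0.60) were also past 1.5-fold. The lowest after MRPL23 were MRPL49 (-0.44), MRPS16 (-0.43), MRPL52 (-0.34), MRPL28 (-0.25) and MRPL22 (-0.24), whose second probe gave 0.03.

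Other genes also had probes that disagreed. MRPL35 gave 0.47 for the MYC-labelled array against the vector by its brightest probe and -0.05 and 0.05 by its others. MRPS21 gave 0.16 for the PI3K array against the vector by its brighter probe and -0.37 by the second. Between the oncogene arrays, MRPL35 gave 0.40 by its brightest probe and -0.05 and -0.19 by its others. MRPS21 gave 0.16 by its brighter probe and 0.90 by the second in that comparison. For MRPL43 and MRPL55 the sign between the oncogene arrays changed with the probe, by gaps of 0.21 and 0.20. The gaps of MRPL43 and MRPL55 were no larger than the technical error, and those of MRPL35 and MRPS21 exceeded it. That error is for 1 probe, and a gap between probes carries the error of each.

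The large and small subunits were then compared, as named by symbol. For the MYC-labelled array against the vector, the median was 0.29 over 48 MRPL genes and 0.30 over 26 MRPS genes, with 41 and 24 above 0. For the PI3K array against the vector it was 0.13 and 0.08, with 33 and 17 above 0. Between the oncogene arrays it was 0.15 and 0.18. The subunit medians thus lay at most 0.05 apart, a gap that was not tested. The proteins of MRPS18A and MRPS30 belong to the large subunit in mammalian structures. Counted there, they turned the sign of the last gap (0.005 for large minus small, against -0.03 by symbol).

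**Figure D4:**
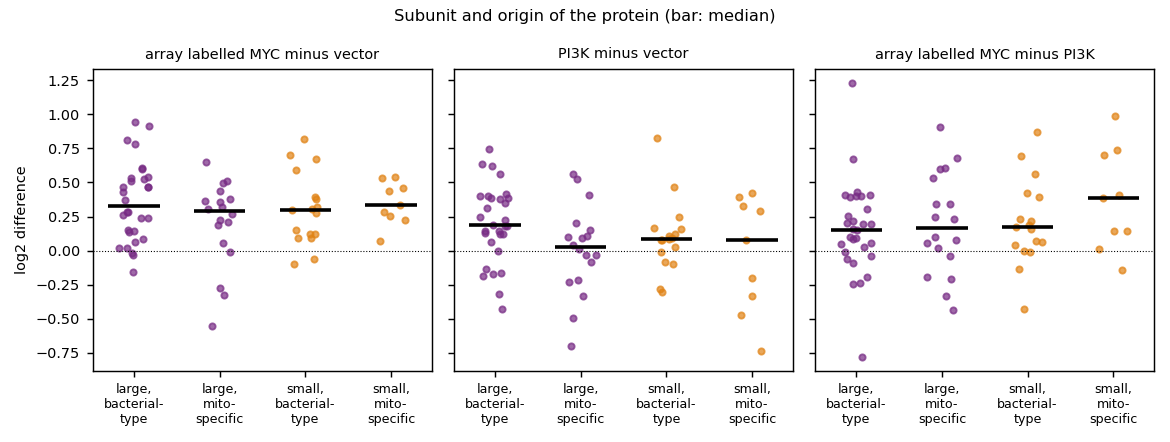
Log2 difference (y axis) of each gene by subunit (MRPL large, MRPS small) and by whether its protein has a bacterial counterpart, in the 3 comparisons, with horizontal bars at the medians and sideways scatter added for visibility. The 4 medians of the MYC-labelled array against the vector lie between 0.29 and 0.34. Those of the PI3K array against the vector lie between 0.02 and 0.19.

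Proteins with a bacterial counterpart (47 genes) and those found only in mitochondrial ribosomes (27 genes) had the same median for the MYC-labelled array against the vector, 0.30 in each. Of the 11 genes at least 1.5-fold higher there, 10 were among the 47 and 1, MRPL48, among the 27. The share of all genes above background was 10.8%. For the PI3K array against the vector, the medians were 0.14 and 0.04, with 35 of 47 and 15 of 27 above 0. Of the 47, 4 were at least 1.5-fold higher on the PI3K array, beside 7.84% of all genes above background. Of the 27, 2 were at least 1.5-fold lower, MRPS33 and MRPL40, beside 9.78% of all genes above background. The second MRPS33 probe gave -0.20. The gap between the medians of the 2 kinds and these small counts were not tested.

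Genes that act with the mitochondrial ribosome had similar medians on the MYC-labelled array. Proteins of ribosome assembly and ribosomal RNA modification had a median of 0.32 for the MYC-labelled array and 0.11 for the PI3K array, with 17 and 12 of 18 above 0. RBFA (0.82), which binds the maturing small subunit, and TRUB2 (0.74), a pseudouridine synthase, were highest on the MYC-labelled array, and ERAL1 (-0.13), a chaperone of the small subunit's RNA, and MRM2 (0.04), a methyltransferase of the large subunit's RNA, were lowest. Translation factors had medians of 0.44 and 0.24 over 9 genes. The initiation factor MTIF2 (0.83) and the elongation factor TUFM (0.65) led on the MYC-labelled array, while the ribosome recycling factor MRRF was below the vector on both oncogene arrays (-0.41 and -0.71). Aminoacyl-tRNA synthetases of mitochondria had medians of 0.25 and 0.10 over 14 genes, with EARS2 at 0.56, MARS2 at 0.53 and CARS2 at -0.63 on the MYC-labelled array.

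Genes of mitochondrial transcription and RNA stability had medians of 0.30 on the MYC-labelled array and 0.31 on the PI3K array over 12 genes. POLRMT, the mitochondrial RNA polymerase, was the 1 gene of the lists of mitochondrial genes past 2-fold on the MYC-labelled array, at 1.12, and LRPPRC (0.62), which stabilises mitochondrial messengers, was highest on the PI3K array. Import genes had medians of 0.35 and 0.12 over 20 genes. The receptor TOMM20 (0.76) and the chaperone TIMM13 (0.70) were highest on the MYC-labelled array and TIMM22, the carrier translocase, lowest (-0.41). GRPEL1, a cofactor of the import motor, gave -0.66 for the PI3K array and was 1.12 higher on the log2 scale on the MYC-labelled array than there. Of the regulators of mitochondrial biogenesis 5 of 8 were above background, with medians of 0.13 and -0.11, and the coactivator PPRC1 was highest on both (0.44 and 0.41). Of a list of genes with other symbols, counted here as mitochondrial ribosome proteins, 4 of 6 were above background, with medians of 0.22 and 0.02 and 3 of 4 above 0 on each array. These were GADD45GIP1, at 0.75 on the MYC-labelled array and 0.01 on the PI3K array, DAP3 (0.28 and -0.06), CHCHD1 (0.16 and 0.36) and KGD4 (-0.21 and 0.02). That KGD4 encodes a protein of the ribosome is not established here, and the medians and counts include it.

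Proteins of the cytosolic ribosome, in a list of 65 genes, had medians of 0.34 on the MYC-labelled array and 0.17 on the PI3K array, with 62 and 57 above 0. Their middle 50% was narrower than that of the mitochondrial ribosomal proteins, 0.14 against 0.36 on the MYC-labelled array and 0.19 against 0.41 on the PI3K array. Cytosolic ribosomal protein genes have many near-identical copies, so a probe can bind messages of several. Many of their probes also read far above every member, such as RPL19 at 41932 on the MYC-labelled array, where the brightest member, MRPS24, read 10191. Whether signal level bears on the width was not tested. The lists' medians describe these arrays and were not tested.

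**Figure D5:**
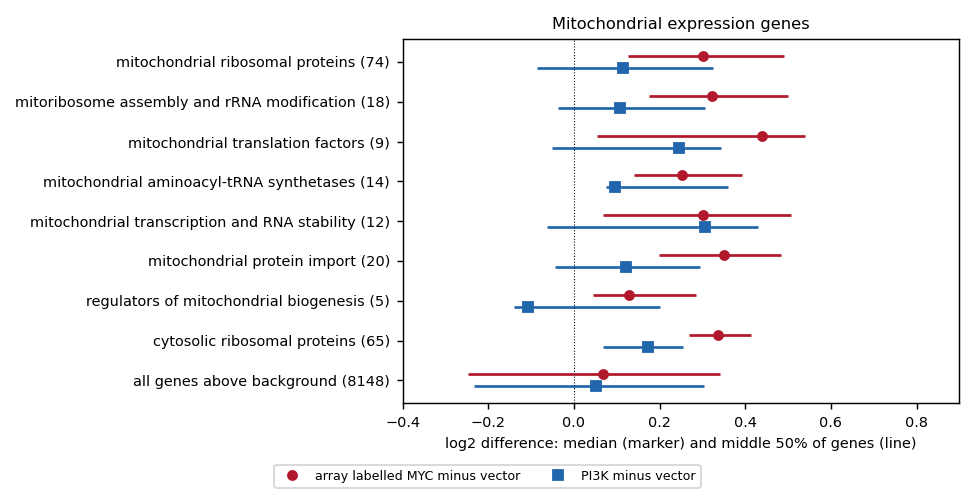
Median log2 difference from the vector array (markers) and middle 50% of genes (lines) for mitochondrial ribosomal proteins, 6 lists of genes that act in mitochondrial gene expression and import, cytosolic ribosomal proteins and all genes above background, with the number of genes in brackets. On the MYC-labelled array (circles) the lists lie between 0.13 and 0.44. On the PI3K array (squares) they lie between -0.11 and 0.31, and all genes lie at 0.07 and 0.05.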

How the data were processed

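The authors deposited scanner output for 24526 probes as signal intensity on a linear scale, not normalised per the file headers, with a detection value for each signal that the header calls a detection p-value. The deposited detection value is a fraction that ranks with the signal (rank correlation 0.981 on the MYC-labelled array and 0.976 on the vector array), so it was read as 1 minus that p-value. The authors' second table holds log2 values of the 3 arrays. Its difference between the MYC-labelled array and the vector array equals the log2 signal ratio plus 0.52, which is log2 of the vector array's 75th percentile (563.5) over that of the other (393.8). The per-probe centring of these values and the making of the PI3K column stay unknown, and its signals were rebuilt on the vector scale. Column medians are 0.07 (MYC-labelled array), 0.04 (PI3K) and -0.16 (vector). The submitters' processing notes name GenomeStudio. In the scanner table, 2 columns of per-sample values name no sample and were not used.

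Of the probes, 21834 have 1 gene symbol, 0 several and 2692 none, and 21813 matched RefSeq. Differences were computed with Python 3.11.15 and pandas 2.3.3, and an alternative with limma 3.58.1 (normexp, offset 50, quantile). The steps were tested on simulated data. The signal behind each value is that of 1 array, so precision is limited by 1 array per group. Named genes are the 6 highest and 6 lowest members of each comparison, members at least 1.5-fold apart and members whose probes disagree. For lists, the highest and lowest 2 genes were the pool of names, with others named after their values were seen. Members, lists and sites on the ribosome were chosen with earlier results of these data known. A protein counted as bacterial-type up to MRPL36 and MRPS21 by number, with MRPL47, MRPL55, MRPS24 and MRPS28 added.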

Additional observations from a re-analysis of the deposited data

How the results depend on the processing

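The alternatives were normexp with quantile normalisation, centring on the median of all probes above background, averaging a gene's probes, detection on both arrays, detection above 0.95, no detection filter and, chosen after seeing the data, only genes with a mean scaled signal of at least 1000 and MRPS18A and MRPS30 counted with the large subunit. The median of the members ranged over 0.22 to 0.31 for the MYC-labelled array against the vector, 0.05 to 0.12 for the PI3K array against the vector and 0.15 to 0.18 between the oncogene arrays. The lower ends of the first and second of these are the centred values, and the centred PI3K median of 0.05 stands against 0.11 without centring. Apart from 1 subunit gap given below, no median and no subunit gap changed sign under these alternatives, and apart from 1 count given below, counts stayed within 1.5 times. Among the 62 genes with a mean scaled signal of at least 1000, 7 were at least 1.5-fold apart between the MYC-labelled array and the vector, against 11 of 74. MRPL3, MRPL4, MRPL19 and MRPL30, all at least 1.5-fold higher, had a lower mean signal than that. Among all genes with that signal, 340 of 3645 were at least 1.5-fold higher and 342 at least 1.5-fold lower. The large minus small subunit gap between the oncogene arrays was 0.0050 with MRPS18A and MRPS30 moved, against -0.028. No paired analysis was possible because each group has 1 array. No array can be left out for the same reason.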
